A study of Mus musculus with 2 samples.

Results

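The Sall (spalt-like) family was examined for Nanog occupancy in embryonic stem cells (ESCs). Its 4 genes, Sall1, Sall2, Sall3 and Sall4, were taken by name from the 21755 protein-coding genes annotated on the autosomes and X, and each was described by the Nanog peaks within 250 kb of its transcription start site (TSS) and by the peaks to which it was the nearest protein-coding gene. The series comprised 1 anti-Nanog ChIP-seq sample (chromatin immunoprecipitation followed by sequencing) and 1 input sample of sonicated chromatin, both from Bruce-4 cells, an untreated mouse ESC line grown in serum and LIF, without replicates. Only the immunoprecipitated sample has a peak list, with 8737 distinct intervals given by position alone, 8735 of them on chromosomes 1 to 19 and X. Positions alone give no peak height and no sequencing depth. The intervals given below reflect counting error and assume that peaks occur independently of each other. On mm10 (GENCODE vM21), Sall4 (ENSMUSG00000027547.17) lies on chromosome 2 from 168748332 to 168767943, Sall1 (ENSMUSG00000031665.7) on chromosome 8 from 89027235 to 89044162, Sall2 (ENSMUSG00000049532.11) on chromosome 14 from 52311172 to 52328762 and Sall3 (ENSMUSG00000024565.9) on chromosome 18 from 80966376 to 80986771, all on the minus strand.

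Sall proteins are transcription factors with pairs of zinc fingers spread along the protein, and a short conserved motif at their amino terminus recruits the NuRD complex, a chromatin remodeller and histone deacetylase. Sall4 is abundant in ESCs, where its protein associates with Nanog and Oct4. Sall1 is best known from kidney development and is also expressed in ESCs, whereas Sall2 and Sall3 are known mainly from the developing eye, nervous system, limbs and face. The study names Sall1 and Sall4 as examples of genes induced during reprogramming, so this pair was compared with Sall2 and Sall3. Its examples come from genes with sites bound both early and late by the reprogramming factors Oct4, Sox2, Klf4 and Myc. The pair was therefore not named on induction alone. RNA was not measured in this series, so which Sall genes these cells expressed was not tested here.

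Around Sall4 and Sall1 the peaks closest to the TSS are shown, and the only peak within 250 kb of Sall2 is shown for contrast. More distal peaks of Sall4 and Sall1 enter the counts below but are not printed. The sequences are from GRCm38 (mm10), plus strand, with peaks wider than 300 bases shown by their central 300. Capitals mark copies of the consensus motifs described further on.
Sall4, 5.16 kb downstream of the TSS, chr2:168762634-168762933: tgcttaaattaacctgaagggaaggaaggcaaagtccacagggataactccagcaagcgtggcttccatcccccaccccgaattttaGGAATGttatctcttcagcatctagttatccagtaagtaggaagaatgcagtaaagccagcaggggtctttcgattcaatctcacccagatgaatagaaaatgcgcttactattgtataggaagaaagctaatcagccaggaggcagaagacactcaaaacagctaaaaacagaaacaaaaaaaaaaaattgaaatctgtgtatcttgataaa
Sall4, 33.6 kb downstream, chr2:168734207-168734496: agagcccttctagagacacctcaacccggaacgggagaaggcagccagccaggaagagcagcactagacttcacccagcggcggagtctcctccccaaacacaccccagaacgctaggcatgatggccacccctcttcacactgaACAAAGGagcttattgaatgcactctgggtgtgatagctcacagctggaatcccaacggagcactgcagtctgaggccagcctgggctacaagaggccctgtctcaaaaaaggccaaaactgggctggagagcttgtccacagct
Sall1, 28.4 kb downstream, chr8:89015647-89015946: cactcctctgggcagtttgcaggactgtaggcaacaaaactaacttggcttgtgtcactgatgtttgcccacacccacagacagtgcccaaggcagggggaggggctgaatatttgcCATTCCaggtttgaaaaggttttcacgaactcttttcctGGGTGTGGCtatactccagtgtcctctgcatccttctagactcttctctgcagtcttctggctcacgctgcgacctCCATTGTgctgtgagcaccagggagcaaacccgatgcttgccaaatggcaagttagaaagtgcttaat
Sall1, 40.55 kb downstream, chr8:89003462-89003761: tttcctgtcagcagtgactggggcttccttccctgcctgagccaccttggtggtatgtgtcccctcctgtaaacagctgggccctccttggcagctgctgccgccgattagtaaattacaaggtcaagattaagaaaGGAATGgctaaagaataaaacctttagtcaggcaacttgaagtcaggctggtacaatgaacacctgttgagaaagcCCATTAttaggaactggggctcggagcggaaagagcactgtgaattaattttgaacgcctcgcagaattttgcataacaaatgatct
Sall1, 90.8 kb downstream, chr8:88953222-88953481: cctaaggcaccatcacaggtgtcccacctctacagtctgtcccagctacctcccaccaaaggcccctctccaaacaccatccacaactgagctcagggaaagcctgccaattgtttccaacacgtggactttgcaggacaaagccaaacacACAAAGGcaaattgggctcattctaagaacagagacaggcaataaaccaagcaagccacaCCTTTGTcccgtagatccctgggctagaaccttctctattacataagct
Sall2, 72.3 kb downstream, chr14:52256336-52256570: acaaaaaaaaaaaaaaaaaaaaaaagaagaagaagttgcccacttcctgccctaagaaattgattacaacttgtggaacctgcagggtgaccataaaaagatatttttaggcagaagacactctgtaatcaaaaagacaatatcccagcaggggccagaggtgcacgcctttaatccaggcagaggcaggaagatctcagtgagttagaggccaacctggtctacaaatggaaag

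Within 250 kb of the TSS, Sall1 and Sall4 each had 5 Nanog peaks (exact 95% Poisson interval 1.62 to 11.7), Sall3 had 3 (0.619 to 8.77) and Sall2 had 1 (0.0253 to 5.57). The intervals of all 4 genes overlap, but overlap is not a test of a difference. Single genes were not tested against each other, so their order is a description only. Over all protein-coding genes the median was 2 peaks, with quartiles of 1 and 4. All 4 Sall genes had a peak in this window, as did 80.4% of protein-coding genes. At least 3 peaks were present at 3 of the 4, against 41.9% of protein-coding genes, and at least 5 at 2 of the 4, against 15.2%. The counts of Sall1 and Sall4 were above those of 84.8% of protein-coding genes, the count of Sall3 was above those of 58.1% and that of Sall2 above those of 19.6%. A total of 14 peaks therefore lay near the Sall genes, none of them shared between genes and none on a repeated line of the list.

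**Figure D1:**
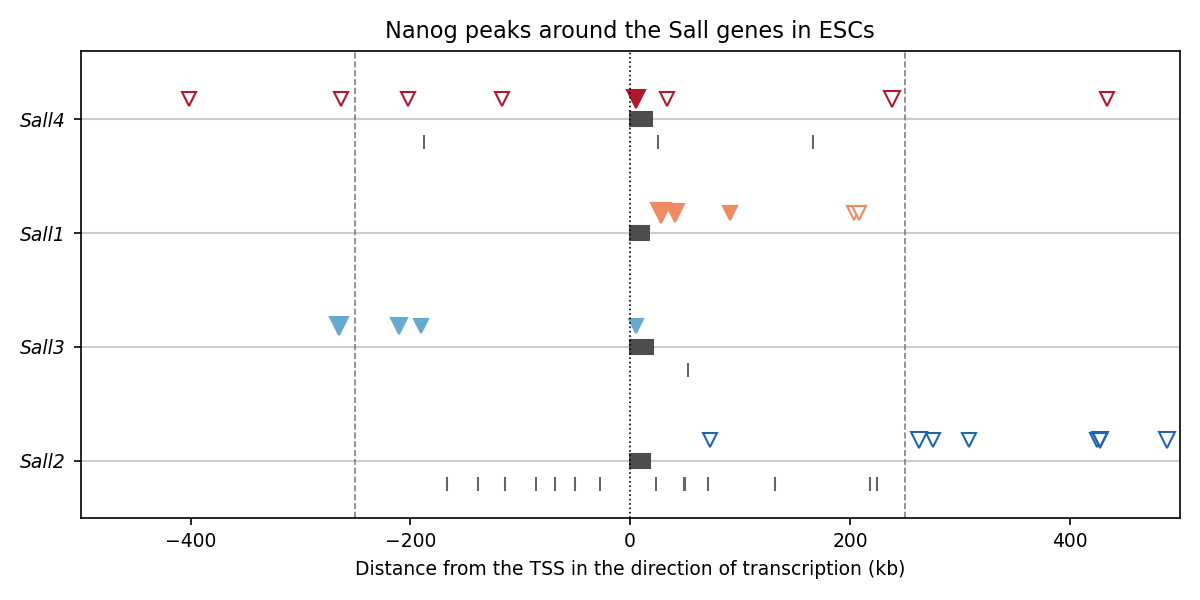
Nanog peaks (triangles, larger for wider peaks) within 500 kb of the TSS of each Sall gene, by distance in the direction of transcription (kb, negative upstream). Filled triangles have the Sall gene as their nearest protein-coding gene, dark boxes are the Sall gene bodies, grey ticks are the TSSs of other protein-coding genes within 250 kb, and dashed lines mark 250 kb; the 5 peaks of Sall1 lie all downstream, and Sall2 has 1 peak between the dashed lines.

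The closest peak separated the family differently from the counts. It lay 5.16 kb from the TSS of Sall4, 5.65 kb from that of Sall3, 28.4 kb from that of Sall1 and 72.3 kb from that of Sall2. Of all protein-coding genes, 6.40% had a peak as close as that of Sall4 and 6.80% one as close as that of Sall3, whereas the corresponding shares were 23.5% for Sall1 and 45.3% for Sall2. The median distance over all protein-coding genes was 85.3 kb. A peak at most 5 kb from the TSS was present at 0 of the 4 genes (6.25% of protein-coding genes had one), 2 had one within 25 kb (21.4%) and 3 had one within 50 kb (35.2%).

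**Figure D2:**
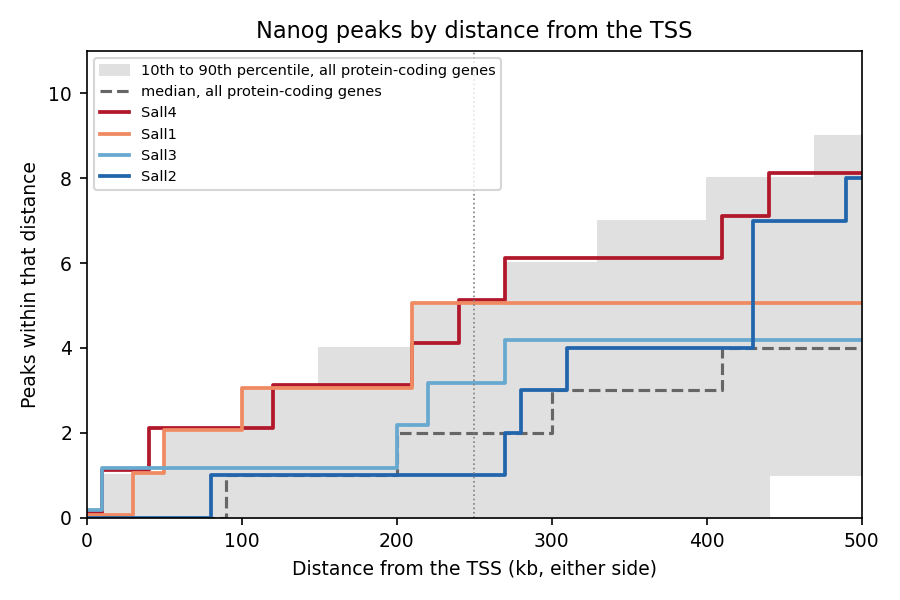
Number of Nanog peaks (vertical axis) within a given distance of the TSS on either side (horizontal axis, kb, in steps of 10 kb) for each Sall gene, with the median and the 10th to 90th percentile over 21755 protein-coding genes. The lines of Sall4, Sall1 and Sall3 are raised slightly so that they can be told apart; at 250 kb (dotted line) Sall1 and Sall4 stand at 5, the 90th percentile, and by 500 kb Sall2 has reached 8, as many as Sall4.

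The nearest peak of Sall4 spanned 168762542 to 168763025 on chromosome 2 and was 484 bp wide, wider than 90.5% of the peaks in the list. Its centre fell within the gene, in the first intron of 4 of the 5 annotated coding transcripts. For the coding transcripts with 4 exons this intron runs from 168756801 to 168766911. The gene's annotated 5′ end belongs to a noncoding transcript, and from the TSS shared by these coding transcripts the same peak lay 4.42 kb away. From the TSS of any Sall4 transcript the smallest distance was 2.46 kb, so that with transcript TSSs 1 of the 4 Sall genes had a peak within 5 kb, against 9.41% of protein-coding genes. Among all annotated genes, the closest TSS to this peak was that of Gm14261, a noncoding transcript on the opposite strand, at 3.36 kb.

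The other 4 peaks near Sall4 lay closer to other genes. A peak of 290 bp at 168734207 to 168734496 was 33.6 kb downstream of the Sall4 TSS, in an intron of Atp9a, which encodes a phospholipid flippase, and 8.06 kb from the Atp9a TSS. At 238.1 kb downstream, a peak of 325 bp (168529648 to 168529972) fell in an intron of Nfatc2, a calcium-regulated transcription factor. Upstream, peaks of 295 bp (168884727 to 168885021) and 315 bp (168970079 to 168970393), at 116.9 kb and 202.3 kb, were intergenic and nearest to Zfp64, a zinc finger gene. Sall4 was thus the nearest protein-coding gene of 1 of the 5 peaks, within a stretch of 106.6 kb in which its TSS is the nearest. That corresponds to 9.38 peaks per Mb of the stretch, against 3.32 per Mb over chromosomes 1 to 19 and X, although it rests on a single peak. The chromosome-wide rate is also a low reference near genes. Protein-coding genes had a mean of 2.43 peaks within 250 kb of the TSS, against 1.66 expected per 500 kb at that rate.

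All 5 peaks near Sall1 lay on one side of the gene, downstream of its TSS and beyond its 3′ end. The first, 89015539 to 89016055, was 517 bp wide and the widest near any Sall gene, exceeding 93.3% of the peaks in the list. It lay 11.4 kb beyond the end of the gene. The next, 89003384 to 89003839 (456 bp, wider than 87.0% of peaks), lay 23.6 kb beyond the gene end, with 11.7 kb between it and the first. Another of 260 bp (88953222 to 88953481) followed at 90.8 kb from the TSS. For these 3 peaks Sall1 was the nearest protein-coding gene. The remaining pair, of 266 bp (88840277 to 88840542) and 296 bp (88836189 to 88836484), lay 203.8 and 207.8 kb from the Sall1 TSS with 3.79 kb between them, and was closer to Cyld, which encodes a deubiquitinase and is named here because of its position. All 5 were intergenic. Upstream of Sall1 the closest peak was 779.6 kb away, and no other protein-coding TSS lay within 250 kb on either side. Peak-free stretches as long as the 808 kb around the Sall1 TSS held 25.6% of the 21524 protein-coding TSSs with a peak on each side.

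The peaks of Sall3 were split between the gene body and a distal upstream group. One peak of 288 bp, 80980973 to 80981260, lay 5.65 kb downstream of the TSS in the first intron of the coding transcript (80974630 to 80986454). The others were intergenic, at 190.2 kb (81176766 to 81177078, 313 bp) and 210.7 kb (81197328 to 81197681, 354 bp) upstream, and a further peak of 498 bp (81251790 to 81252287) stood just outside the window at 265.3 kb. Sall3 was the nearest protein-coding gene of all 4, the most in the family, and 1.47% of protein-coding genes had as many. Its stretch of nearest TSS was also long, at 736.4 kb against a median of 47.1 kb over all genes, and held 5.43 peaks per Mb. For Sall1 the stretch was 825.7 kb with 3.63 peaks per Mb. The single other protein-coding TSS within 250 kb of Sall3, that of Atp9b, was the nearest gene of none of these peaks.

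Within 250 kb Sall2 had the fewest peaks, and its closest peak was the farthest of the 4 genes, whereas within 500 kb it had 8 peaks, as many as Sall4. Its only peak in the window, 52256336 to 52256570, had a width of 235 bp, the smallest width in the list, which it shared with 8.91% of the peaks. It lay 72.3 kb downstream of the Sall2 TSS and 1.33 kb from the TSS of Chd8, which encodes a chromodomain helicase, in an exon of a retained-intron transcript of that gene that falls within an intron of its coding form. Sall2 was not the nearest protein-coding gene of any peak. Its stretch of nearest TSS was 25.6 kb, shorter than those of the other members, and 14 other protein-coding TSSs lay within 250 kb, against 0 for Sall1, 1 for Sall3 and 3 for Sall4. The 7 on the upstream side were all olfactory receptor genes (Olfr1507 to Olfr1513), and the closest peak in that direction was 715.6 kb away. Just outside the window, further peaks stood at 262.3 and 275.9 kb on the downstream side. Soft-masked repeats made up 42.9% of the window of Sall2, 30.7% of that of Sall4, 22.3% of that of Sall3 and 21.3% of that of Sall1, and their part in the counts was not tested.

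Taking the genes as pairs, Sall1 and Sall4 together had 10 peaks within 250 kb and Sall2 and Sall3 together had 4, a ratio of 2.5 with an exact conditional 95% interval of 0.721 to 10.9. The interval includes 1, and the difference was therefore not detectable with this number of peaks. Within 50 kb the counts were 4 and 1, a ratio of 4 (0.396 to 197.0). As nearest protein-coding genes, the pairs had 4 peaks each, a ratio of 1 (0.186 to 5.37), and at least 1 peak was assigned in this way to 3 of the 4 Sall genes, against 24.6% of protein-coding genes. When noncoding and other annotated genes were admitted as well, a Sall gene was nearest to 1 of the 14 peaks, the intronic one of Sall3. At 500 kb the pairs held 13 and 12 peaks. Genes are not replicates of a condition, and an exact permutation of 4 genes into 2 pairs could not give a two-sided p below 0.333, so no permutation test between the pairs was made. Within the pairs the genes also differed, since the closest peak lay 5.65 kb from Sall3 and 72.3 kb from Sall2. The short distances of Sall3 and Sall4 each rest on 1 peak, of 288 and 484 bp. Among peaks at or above the list's median width, the closest lay at 210.7 kb for Sall3 and at 5.16 kb for Sall4. Width is not a measure of peak strength, so this does not rank the 2 peaks by reliability.

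Consensus motifs of ESC transcription factors were then located in the 14 peaks, on both strands and without mismatch unless stated. The Sox motif (CCATTGT or CCTTTGT) was found in 7 of the 14 (50.0%, exact binomial interval 23.0 to 77.0), compared with 28.2% of all peaks in the list and 11.6% of flanking windows of the same width placed 1 kb beyond each edge. The Klf motif (GCCACACCC, GCCACGCCC, GCCCCACCC or GCCCCGCCC) was in 3 (21.4%, interval 4.66 to 50.8; 8.998% of all peaks and 2.29% of flanks). The Nanog core motif (CCATTA) was in 3 as well (18.1% of all peaks and 13.0% of flanks), and the Tead motif (GGAATG) in 5 (35.7%, interval 12.8 to 64.9; 25.4% of all peaks and 17.5% of flanks). Each interval includes the share over all peaks. The Oct octamer (ATGCAAAT), the Esrrb motif (TCAAGGTCA) and the Oct4-Sox2 composite, in which the Sox part CATTGT is followed after 1 base by the octamer with at most 2 mismatches in all, were in 0 of the 14 peaks, for which the upper exact limit is 23.2%. All peaks held them in 5.72%, 3.53% and 3.64%, so their absence here was within counting error. The composite contains the octamer and part of the Sox word, so these motifs overlap.

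In the sequences printed above, the peak 28.4 kb downstream of Sall1 held a Tead, a Klf and a Sox copy centred 30.5, 10 and 85 bp from the peak centre. The peak at 40.55 kb held a Tead copy 10.5 bp and a Nanog core copy 65.5 bp from its centre, with another Tead copy outside the bases shown. In the peak at 90.8 kb, Sox copies stood at 24 and 84 bp. The intronic Sall4 peak had a Tead copy 60.5 bp from its centre and a Nanog core copy 207.5 bp away, which is outside the bases shown, whereas the peak in Atp9a had its Sox copy 3 bp from the centre. The intronic Sall3 peak also held 1 Nanog core and 1 Tead copy, and no Sox copy. All 3 peaks with a Nanog core copy held Tead and no Sox, including the intergenic Sall1 peak at 40.55 kb. The Sall2 peak held none of the motifs searched, and neither did the Sall4 peak at 202.3 kb or the Sall1 peak at 203.8 kb. In all, 11 of the 14 peaks (78.6%, interval 49.2 to 95.3) held at least 1 motif, against 64.5% of all peaks and 39.5% of flanks.

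**Figure D3:**
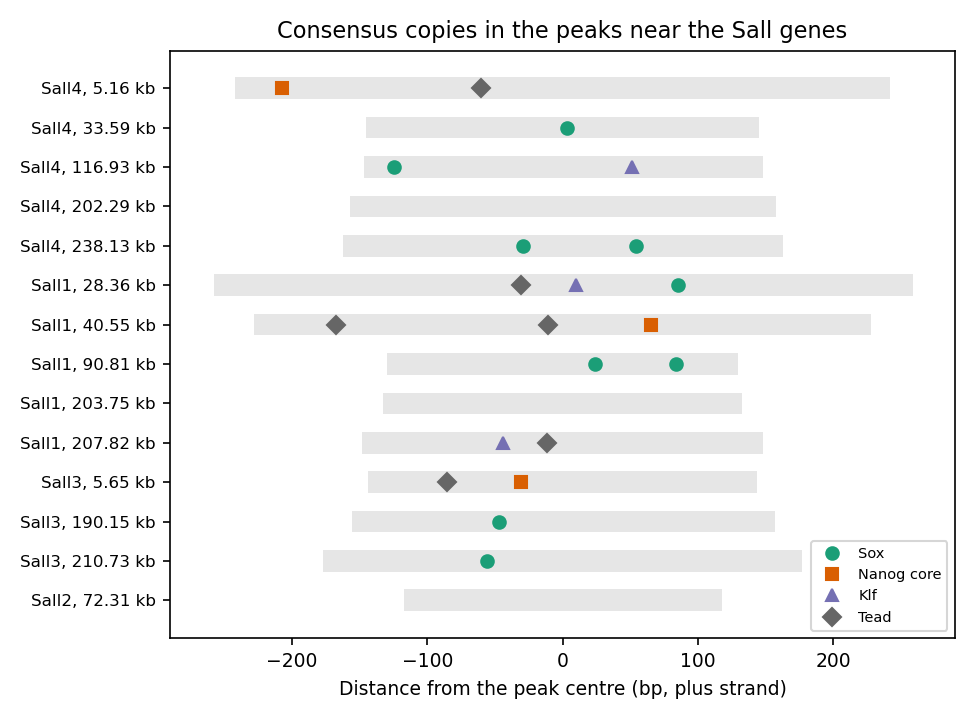
Copies of consensus motifs in the 14 peaks within 250 kb of a Sall gene, by distance from the peak centre (bp, along the plus strand). Grey bars are the peaks, to scale and labelled by gene and distance from its TSS, and symbols are motif copies; 3 peaks hold none, among them the single peak of Sall2, and Sox copies appear in 7.

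Other properties of the 14 peaks are given beside those of the list, without intervals or a test. Their median width was 304.5 bp against 319 bp, and 5 of the 14 reached the list's median. Their median GC content was 48.5% (range 41.3 to 56.9) against 47.7% for all peaks. A soft-masked repeat held 1 of the 14 centres, a peak of Sall3, against 20.3% of all centres. Of the centres, 9 were intergenic, 4 were intronic and 1 was in the noncoding exon at Chd8. When peaks were chained over gaps of at most 10 kb, only the distal pair of Sall1 joined another peak (2 of 14 peaks, against 20.96% of all peaks).

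NuRD subunits, with which Sall proteins associate, and genes of the pluripotency network, with which Sall4 acts, were examined in the same way. All 13 NuRD genes and all 15 pluripotency genes had a peak within 250 kb, where 80.4% of protein-coding genes had one. At least 5 peaks were present at 3 of the 13 NuRD genes and 10 of the 15 pluripotency genes, against 15.2% of protein-coding genes. The median was 4 peaks for NuRD genes, 5 for pluripotency genes and 4 for the Sall genes, against 2 over all protein-coding genes. The closest peak lay a median of 4.87 kb from the TSS of pluripotency genes, 17.0 kb from that of Sall genes and 37.8 kb from that of NuRD genes. A peak within 5 kb was found at 8 of the 15 pluripotency genes and 3 of the 13 NuRD genes, against 6.25% of protein-coding genes. The pluripotency genes among them included Pou5f1 (1.02 kb), which encodes Oct4, Sox2 (3.68 kb), Nanog itself (4.87 kb), Klf2 (2.73 kb), Tfcp2l1 (1.31 kb), Prdm14 (1.09 kb) and Zfp42 (0.172 kb), the gene of the ESC marker Rex1. The NuRD genes were the histone-binding subunit Rbbp4 (0.080 kb), Gatad2a (0.163 kb) and the metastasis-associated subunit Mta2 (0.973 kb). By the distance of its closest peak, Sall4 at 5.16 kb ranked behind the 8 pluripotency genes with a peak within 5 kb and ahead of the other 7. This rank depends on the TSS used, here the annotated 5′ end of each gene. From the TSS of the Sall4 coding transcripts with 4 exons the distance was 4.42 kb, and transcript distances of the pluripotency genes are not given here. The pluripotency genes were listed for their known roles in ESCs, where many are known Nanog targets, so that their counts are no independent reference.

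**Figure D4:**
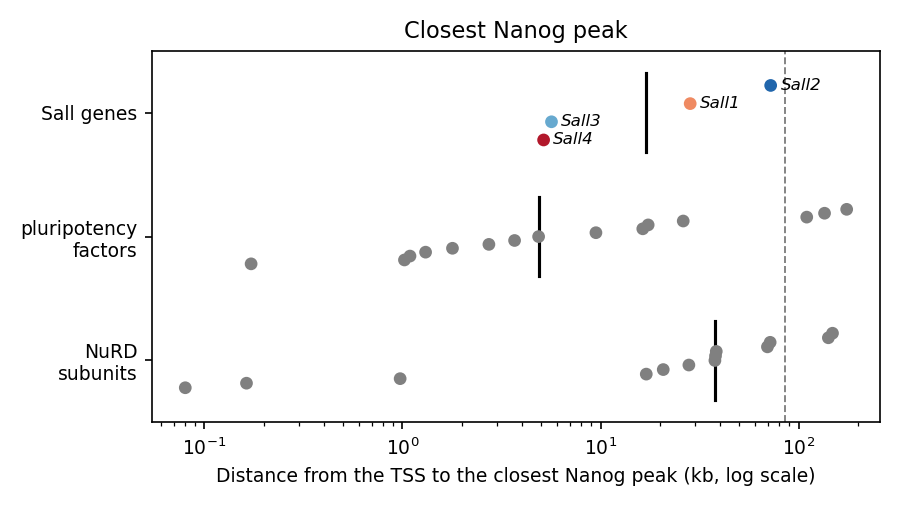
Distance from the TSS to the closest Nanog peak (kb, log scale) for the 4 Sall genes, 15 pluripotency genes and 13 NuRD subunits, 1 point per gene, spread vertically in order of distance. Black lines are list medians (17.0, 4.87 and 37.8 kb) and the dashed line is the median of all protein-coding genes (85.3 kb), beyond which no Sall gene lies.

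Genes with the most similar layout of peaks were sought by comparing counts within 5, 25, 50, 100 and 250 kb. Identical counts to Sall4 (0, 1, 2, 2 and 5 peaks) were found at 37 protein-coding genes, and those with a similar closest distance included Tex21 (8.47 kb) and Plin4, which encodes a lipid droplet protein (8.66 kb). Identical counts to Sall1 (0, 0, 2, 3 and 5 peaks) were found at 29, led by Tfrc, which encodes the transferrin receptor (28.3 kb), Celf6, an RNA-binding protein gene (28.6 kb), and the zinc finger gene Zfp874a (28.8 kb). The likeness is one of peak counts over these 5 windows in a single library.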

How the data were processed

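Nanog ChIP-seq was analysed in 1 immunoprecipitated sample, while the input sample, without a peak list, was not used. By the study's account, the authors checked reads with FastQC, aligned them to mm10 with Bowtie2, discarded poor-quality, duplicate, mitochondrial and blacklisted reads with bedtools and SAMtools, and called peaks with MACS2. The peak threshold and whether the input served as control in the call are not given in the sources used here. The file deposited by the authors holds chromosome, start and end in base pairs. Of its 8860 lines, 123 repeated an interval and were counted once.

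Positions were 1-based. The TSS was the 5′ end of the gene in GENCODE vM21, and distances were measured to each peak's middle base. The nearest protein-coding gene was taken up to 1000 kb away. Annotation was read at the middle base. Sequence came from GRCm38.p6, the assembly of mm10, read with pysam 0.24.0. Poisson, binomial and ratio intervals are exact 95% intervals (scipy 1.17.1). Counting and motif steps were tested on simulated data. The members and gene lists were chosen with earlier results of these data known. Named genes were the Sall genes, window genes nearest to a peak, list genes with a peak within 5 kb and the 3 genes of most similar counts for each of Sall4 and Sall1. Cyld, Atp9b, Gm14261 and the olfactory receptor genes fall outside this rule and were named after their values were seen. Some genes that meet the rule are not reported here. Alternatives were other windows, edge distance, transcript TSSs, all lines, merging within 300 bp, wider peaks, all annotated genes, and motif search in 200 bp. A planned comparison of the Sall proteins was not run, since no protein sequences were used here.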

Additional observations from a re-analysis of the deposited data

How the results depend on the processing

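No paired analysis was possible because a peak list was at hand for the immunoprecipitated sample alone. Alternatives were run 98 times in all, and 68 values stayed close to the reported one (counts and distances within 1.5 times, ratios and shares within its exact interval), while 30 did not. This tally is a loose guide to stability. The ratio of the pairs counts as close even at 1.08, because its interval of 0.721 to 10.9 is wide. A value of 0 that stayed 0 counts as close too. Every alternative for the share of genes with fewer peaks is among the 30, also small shifts such as 84.8% to 81.1% for Sall4 at 500 kb. Peak counts at 100 kb were 3 for Sall1, 1 for Sall3 and 2 for Sall4, and at 500 kb they were 8 for both Sall2 and Sall4. Restricting the list to peaks no narrower than its median gave 2 for Sall1, 0 for Sall2, 1 for Sall3 and 2 for Sall4, and with transcript TSSs Sall2 had 2. The share of genes with fewer peaks became 88.6%, 45.2%, 45.2% and 73.7% for Sall1, Sall2, Sall3 and Sall4 at 100 kb, 50.9%, 81.1%, 38.9% and 81.1% at 500 kb, and 67.1%, 0%, 38.2% and 67.1% among wider peaks, so that Sall2, lowest at 250 kb, equalled Sall4 and exceeded Sall1 and Sall3 at 500 kb. Nearest-gene counts with all annotated genes were 0 for Sall1, 1 for Sall3 and 0 for Sall4, and for Sall3 they were 2 among wider peaks and 1 up to 100 kb. The closest wider peak lay 262.3 kb from Sall2 and 210.7 kb from Sall3, and transcript TSSs brought that of Sall4 to 2.46 kb. The ratio of the pairs ranged from 1.08 at 500 kb to 4 among wider peaks, within its interval. Edge distance moved none of these values beyond the limits above. Counting repeated lines and merging within 300 bp could not change them. No peak counted for a Sall gene was on a repeated line, and the smallest gap to another peak was 3.79 kb. These 2 alternatives therefore say nothing about stability. The list gives no sites below the threshold of the peak call, so that missed sites cannot be counted.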
